A study of Mus musculus with 2 samples.

Results

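Notch signaling passes between cells that touch each other. Delta-like ligands (*Dll1*, *Dll4*) and Jagged ligands (*Jag1*, *Jag2*) on a cell surface bind Notch receptors (*Notch1*, *Notch2*, *Notch3*) on the neighboring cell, the receptor is then cleaved by ADAM proteases and by γ-secretase, and its intracellular part enters the nucleus, joins the DNA-binding protein RBPJ and switches on target genes such as *Hes1*, *Hey1* and *Nrarp*. In the mouse stomach, the pathway is known to maintain stem and progenitor cells of the glands and to hold back their differentiation. These 10 genes were taken by name from the 19505 genes of the arrays, and each was measured by 1 probe set that carries its symbol alone.

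The RNA came from gastric organoids, three-dimensional cultures grown from dissociated stomachs of C57BL/6 mice. Young organoids came from mice aged 2 to 4 months and aged organoids from mice over 18 months old, with 1 array per group. Values written in pairs give the young array first and the aged array second. No genetic change or treatment separated the groups, and both grew in Matrigel in a medium that supplied Wnt3a, R-Spondin1, Chir99021, EGF, FGF10, Noggin, SB431542, Y-27632 and valproic acid, with neither a Notch ligand nor a Notch inhibitor among the listed components. The sources used here do not give how many mice or passages stood behind each RNA. Without replicates no difference was tested, and age cannot be told apart from any other difference between the cultures. Epithelial genes checked the label, and all 12 of 12 measured (*Epcam* and *Cdh1* among them) lay above background on both arrays, as did 6 of 13 stomach genes, *Cldn18*, *Sox2* and *Ctse* included. Of the other stomach genes, *Muc5ac*, *Gkn1* and *Atp4b* were at background on both arrays and *Tff1* on the aged array. On that list, 3 genes of differentiated stomach cells differed far more between the cultures than any Notch gene. The chief cell gene *Pgc*, which encodes a pepsinogen, was at 15.88 and 5.19 and *Cblif*, which encodes gastric intrinsic factor, at 13.91 and 3.65, at least 1296-fold and at least 332-fold lower in aged organoids, while *Tff2*, a gene of mucous neck cells, was at 4.43 and 12.76, at least 169-fold higher. The part of these differences in the values of the Notch genes was not tested. None of 9 leukocyte markers lay above background on either array. Proliferation genes differed widely, and 8 of 9 measured had a signal at least 2-fold higher in aged organoids.

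Of the Notch genes, *Notch2* had a higher signal in aged organoids than in young organoids, and *Jag1*, *Jag2* and *Hes1* a lower one. *Notch3* was lower by less and *Hey1* and *Nrarp* were higher by less, the latter at the edge of background. *Notch1*, *Dll1* and *Dll4* gave no signal above background on either array. A background reference was set from 1412 genes of smell and pheromone receptors, which have no known use in the stomach, at the 95th percentile of their signals, and stood at 5.36 (young) and 5.54 (aged). All signals are RMA values as deposited, read as log2, and differences are aged minus young. Of the 10 genes, 7 were above the reference on at least 1 array, against 59.3% of all genes. By the measured difference, 1 of the 7 was at least 2-fold higher in aged organoids (*Notch2*), against 11.3% of all 11558 genes above the reference, and 2 were lower by as much (*Hes1*, and *Jag2*, whose aged signal was at background), against 11.8%. In either direction 3 of the 7 had a measured difference that large, against 23.2% of all genes, so that the Notch genes do not stand out by number. Their median difference was −0.47 over the 7 genes, and that of all genes above the reference was 0.0021. With so few genes this median is the difference of *Notch3* alone, and those of *Jag2* and *Nrarp* rest in part on a signal at background. It does not show a shift of the group. Signals of different genes are not compared with each other, since probe sets differ in brightness.

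**Figure D1:**
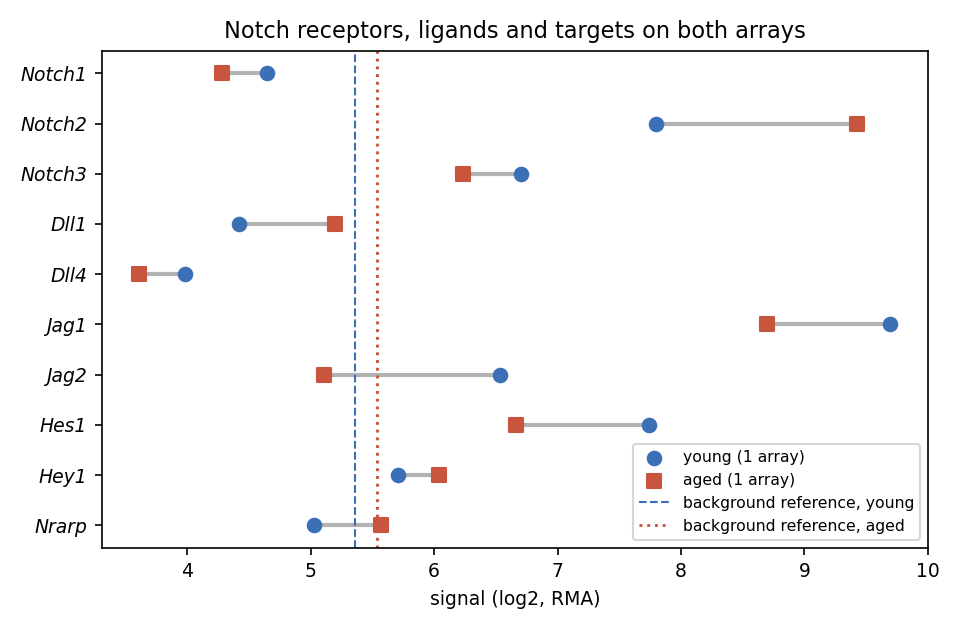
Signals (log2) of the 10 Notch genes on the young array (circles) and the aged array (squares), 1 array per group, with the background reference of each array as a vertical line (5.36 young, 5.54 aged). *Notch2* lies to the right on the aged array and *Jag1*, *Jag2* and *Hes1* on the young array, while *Notch1*, *Dll1* and *Dll4* lie left of both lines.

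Among the receptors, *Notch2* was the one with the higher signal in aged organoids. Its signals were 7.79 and 9.43, a difference of 1.63 or 3.10-fold, and both values lay at least 2.43 above the reference. Of all genes above the reference, 94.9% had a smaller or more negative difference. *Notch3*, a receptor best known from vascular smooth muscle and pericytes, was at 6.71 and 6.23, a difference of −0.47. This is close to the SD of 0.51 that the differences of the receptor genes at background had, which is the only measure of precision these arrays give, and it holds for dim signals. *Notch1*, a receptor used by stem cells of many epithelia, was at 4.65 and 4.28, both at background, so that no fold can be given. In bulk RNA, fewer cells that express a gene and less RNA per cell cannot be told apart.

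Cells other than epithelium can also carry Notch genes. Of the 10 measured markers of pericytes and smooth muscle, 2 exceeded the reference in young organoids and 0 in aged organoids. These were the adhesion molecule gene *Mcam* (10.37 and 4.62, at least 28.5-fold lower in aged) and the G protein regulator *Rgs5* (7.57 and 4.85, at least 4.09-fold lower), while the defining genes *Pdgfrb*, *Acta2* and *Myh11* were at background on both arrays. The list had mean signals of 4.92 and 4.23, and its part in the small difference of *Notch3* was not tested. Of 10 measured endothelial markers, 1 (*Esam*, 6.57 and 6.35) was above the reference, and *Pecam1*, *Cdh5* and *Kdr* were at background on both arrays, as were *Dll4* and *Notch4*, a ligand and a receptor of endothelial cells. The mean signal of the endothelial list was 4.31 and 4.23. Of 9 measured fibroblast markers, 4 were above the reference on at least 1 array. These were *Fn1* (12.16 and 11.39), *Col1a1* (5.92 and 6.15), *Lum* on the aged array only (5.65) and *Fbln1* on the young array only (6.90). The fibroblast markers *Col1a2*, *Col3a1*, *Dcn*, *Thy1* and *Postn* were at background on both arrays. Within the epithelium, 2 of 9 enteroendocrine markers were above the reference, *Isl1* (9.70 and 7.81) and *Pax6*, the latter by 0.23 on the young array only. The enteroendocrine markers *Chga*, *Chgb*, *Gast*, *Sst* and *Ghrl* were at background on both arrays. Of 6 tuft cell markers, 1 was above the reference, *Dclk1* (8.73 and 5.88), while *Trpm5*, *Pou2f3*, *Il25* and *Gnat3* were at background on both arrays. These markers do not settle which of these cell types were present, and any part of such cells in the values of the Notch genes was not tested.

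Both Jagged ligands were lower in aged organoids. *Jag1* was at 9.70 and 8.70, at least 3.16 above the reference on both arrays, and its difference of −0.997 fell just short of the 2-fold limit. *Jag2* was at 6.53 in young organoids, 1.17 above the reference, and at 5.10 in aged organoids, 0.44 under it. Because the aged value is at background, *Jag2* was at least 1.99-fold lower in aged organoids. The measured difference of −1.43 passed the 2-fold limit and the bound did not. Counted on such bounds, at least 2-fold lower was 1 of the 7 genes, *Hes1*, against 10.2% of all genes, and at least 2-fold higher was *Notch2* alone, against 10.6%.

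Neither Delta-like ligand was measured above background. *Dll1*, the ligand of secretory progenitors in the intestine, was at 4.42 and 5.20, the aged value 0.34 under the reference, and *Dll4* was at 3.98 and 3.61. With the reference moved to the 90th percentile of the receptor genes, *Dll1* passed it on the aged array and *Dll4* on neither. A signal at background on these arrays does not show that the RNA was absent.

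**Figure D2:**
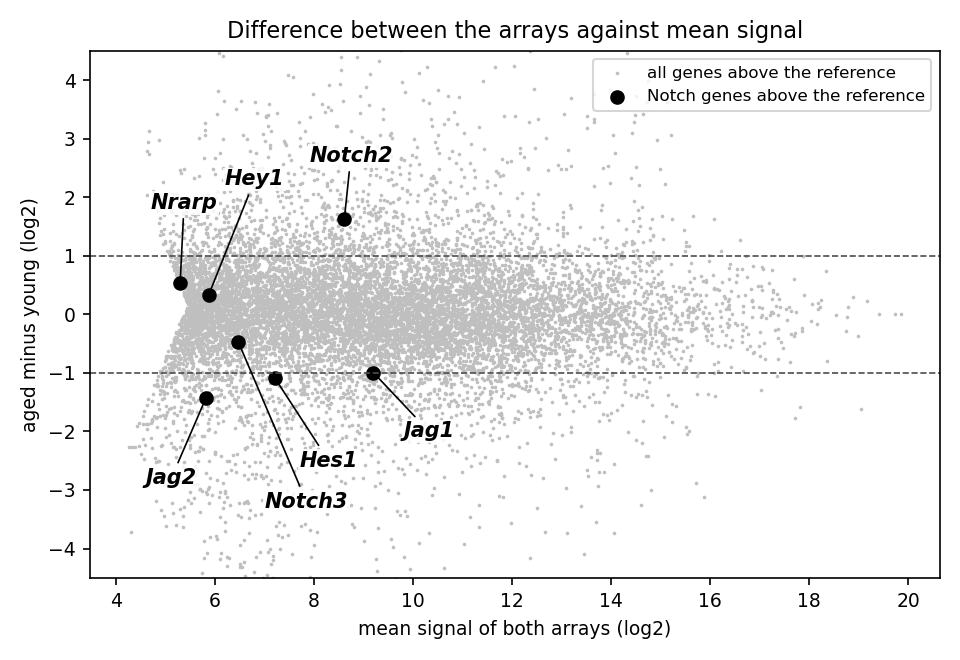
Difference between the arrays (aged minus young, log2) against the mean signal of both arrays (log2) for the 11558 genes above the reference on at least 1 array (grey), with the 7 Notch genes above it in black and dashed lines at 2-fold. *Notch2* lies above the upper line, *Jag2* and *Hes1* below the lower one and *Jag1* on it, all within the cloud of other genes (139 genes lie beyond the vertical axis).

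*Jag2* was lower in aged organoids, unlike most genes of its chromosome. It lies on chromosome 12, the chromosome of its probe set, where the 409 genes above the reference had a median difference of 0.60, with 28.6% of them higher by at least 2-fold in aged organoids and 5.62% lower by as much. Since the aged signal of *Jag2* was at background, its place among these genes is known only through its bound, a difference of −0.99 or lower. The other Notch pathway genes of chromosome 12 that were above the reference ran with the chromosome, namely the receptor protease gene *Adam17* (12.92 and 13.48), the nuclear cofactor gene *Snw1* (10.52 and 11.20) and *Numb*, an inhibitor of Notch receptors (10.92 and 11.64). Their differences were 0.55, 0.68 and 0.72. The other 9 Notch genes lie on chromosomes 2, 3, 16 and 17, whose medians were −0.06, 0.01, −0.07 and −0.06.

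**Figure D3:**
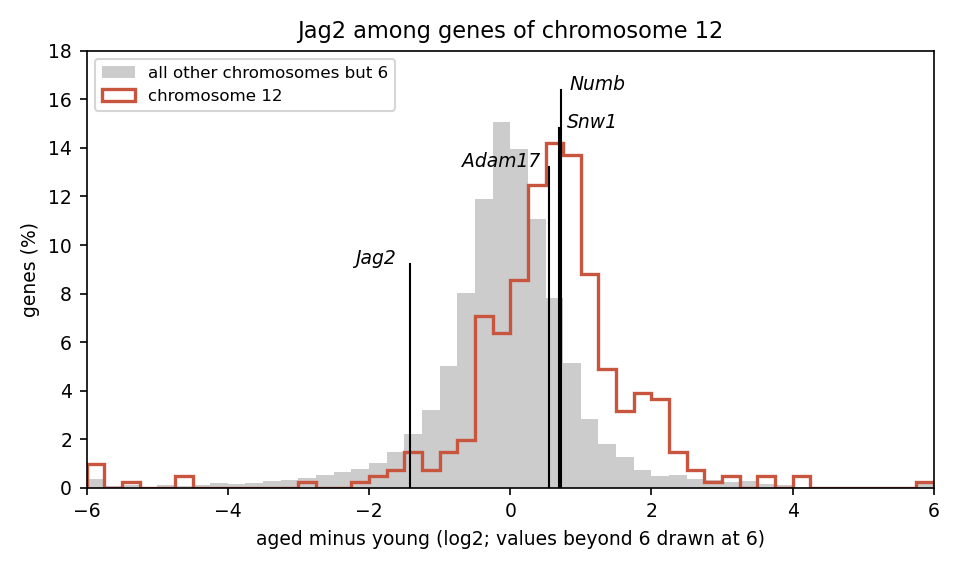
Share of genes (%) by their difference between the arrays (aged minus young, log2, values beyond 6 drawn at 6) for chromosome 12 (line) and for all chromosomes but 6 and 12 (grey), over genes above the reference. Vertical lines mark 4 Notch pathway genes of chromosome 12, their heights chosen for legibility, with *Adam17*, *Snw1* and *Numb* near the chromosome's median of 0.60 and *Jag2*, whose aged signal was at background, at a measured −1.43.

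The target genes did not share a direction. *Hes1*, a transcriptional repressor and the most widely used readout of Notch activity in gut epithelium, gave 7.74 in young and 6.66 in aged organoids, a difference of −1.08 or 2.12-fold, with both values more than 1 above the reference. Of the 1412 smell and pheromone receptor genes, 5.38% were also at least 2-fold apart, which limits the calls of *Hes1* and *Jag2*. Of all genes above the reference, 10.7% had a lower difference. *Hey1*, a related repressor, was at 5.70 and 6.04, a difference of 0.33 that is smaller than the SD of 0.51 at background. *Nrarp*, whose protein feeds back on the Notch transcription complex, had a young signal under the reference (5.02) and an aged signal 0.03 above it (5.57), and was so at least 1.15-fold higher. At the 99th percentile of the receptor genes, *Hey1* and *Nrarp* were no longer above the reference, and *Notch2*, *Notch3*, *Jag1*, *Jag2* and *Hes1* were.

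Sequences upstream of the start sites show which short motifs known from this pathway lie next to the members. RefSeq promoter sequences (GRCm38.p6) were matched by symbol for 8 of the 10 members, in 9 windows, since *Dll1* has 2, and those of *Hes1* and *Hey1* were not matched. The 250 bases upstream of the start were searched on both strands for the letters TGGGAA (the core of the RBPJ site), CACGTG (an E box, which reads the same on both strands) and CACGCG (the class C site that Hes and Hey proteins can bind). TGGGAA was in 0 of the 9 windows and in 21.6% of all 32851 windows. CACGTG was in 1, that of *Nrarp*, and in 6.02% of all. CACGCG was in 4, of *Notch2*, *Jag1*, *Dll1* and *Dll4*, and in 7.62% of all. The shares over all windows were not matched for base composition, so these counts show no enrichment. A match is a string of letters and not a measured binding site, and many RBPJ sites lie outside such a window. The windows of *Notch2* (the receptor higher in aged organoids, chr3:98013288-98013537, + strand), *Jag1* (a ligand lower in them, chr2:137116521-137116770, − strand) and *Nrarp* (a feedback target, chr2:25180508-25180757, + strand) are printed 5′ to 3′, ending at the base before the start, with the matches in capitals.
*Notch2*: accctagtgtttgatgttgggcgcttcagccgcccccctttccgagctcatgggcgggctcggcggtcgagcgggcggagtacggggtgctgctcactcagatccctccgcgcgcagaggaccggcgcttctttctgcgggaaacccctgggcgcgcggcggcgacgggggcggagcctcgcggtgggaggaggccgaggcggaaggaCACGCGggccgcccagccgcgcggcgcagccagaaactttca
*Jag1*: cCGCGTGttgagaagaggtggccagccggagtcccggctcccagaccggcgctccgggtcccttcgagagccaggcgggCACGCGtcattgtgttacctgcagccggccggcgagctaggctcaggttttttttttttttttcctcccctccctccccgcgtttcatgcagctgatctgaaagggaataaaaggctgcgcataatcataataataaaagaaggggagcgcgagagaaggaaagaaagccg
*Nrarp*: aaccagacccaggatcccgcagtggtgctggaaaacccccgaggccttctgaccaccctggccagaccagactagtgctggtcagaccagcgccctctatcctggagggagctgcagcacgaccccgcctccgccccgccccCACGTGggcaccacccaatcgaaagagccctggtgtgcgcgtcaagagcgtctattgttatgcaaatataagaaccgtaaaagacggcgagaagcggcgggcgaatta

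Counted from the start, the class C letters of *Notch2* begin 42 bases upstream, those of *Jag1* 171 bases upstream and, as the reverse complement CGCGTG, 249 bases upstream, and the E box of *Nrarp* 108 bases upstream. The class C letters also lie in windows of *Dll1* and *Dll4*, which were at background on both arrays. Any link between these letters and the signals was not tested.

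The other genes of the pathway were mostly less than 2-fold apart. Of 99 such genes listed beside the members, 91 were measured and 65 were above the reference on at least 1 array, of which by the measured difference 3 (4.62%) were higher in aged organoids by at least 2-fold and 10 (15.4%) were lower, against 11.3% and 11.8% of all genes. Counted on bounds, 3 of the 65 were higher and 8 lower by at least 2-fold, against 10.6% and 10.2% of all genes. The median difference of the 65 genes was −0.06. The listed genes without a measured value are not analysed here.

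**Figure D4:**
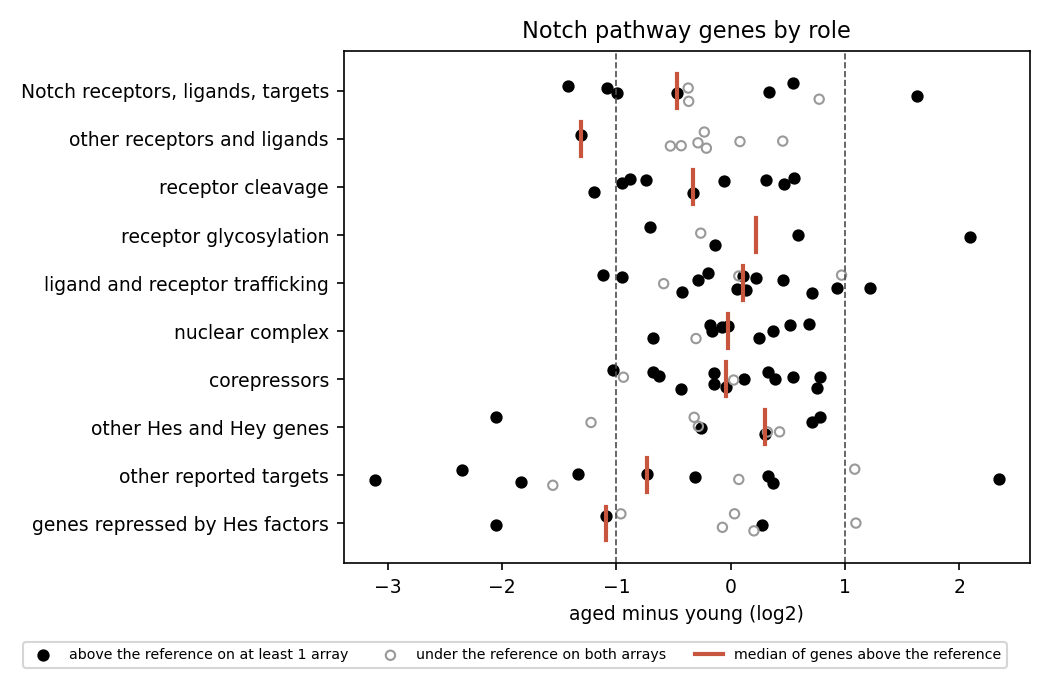
Differences (aged minus young, log2) of Notch pathway genes by role, with a filled point for each gene above the reference on at least 1 array, an open point for each gene under it on both, a vertical bar at the median of the filled points and dashed lines at 2-fold. Genes of receptor cleavage, trafficking, the nuclear complex and the corepressors lie mostly between the dashed lines, while *Hes6* and *Lfng* lie outside them.

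Most genes that process and modify the receptor were above the reference in both cultures. All 9 measured genes of receptor cleavage were above the reference on both arrays, with a median difference of −0.33. *Ncstn*, which encodes the γ-secretase subunit nicastrin, was the 1 of them at least 2-fold apart (12.61 and 11.41). The γ-secretase subunit gene *Psenen* was at 14.37 and 14.84, and the protease gene *Adam10* at 13.79 and 12.83. Of the sugar-transferring enzymes, *Lfng* had the greatest difference. Its product Lunatic fringe extends sugars on Notch receptors and is known to favor their response to Delta-like over Jagged ligands. *Lfng* was at background in young organoids (4.99) and at 7.08 in aged organoids, at least 3.29-fold higher. *Rfng* (8.82 and 8.69), another fringe gene, and *Poglut1* (12.56 and 11.85), whose enzyme adds glucose to the receptor, were less than 2-fold apart.

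Of the genes for trafficking of ligands and receptors, 13 of 16 were above the reference. *Dtx2*, which encodes a ubiquitin ligase of the Deltex family that acts on the receptor, was higher in aged organoids (7.05 and 8.27, 2.33-fold). *Neurl1a*, which encodes a ubiquitin ligase of the ligands, was at 6.30 in young organoids and at background (5.18) in aged organoids, at least 1.69-fold lower. *Mib1*, the ligase most needed for ligand activity in mice, was at 12.44 and 12.01. In the nuclear complex, 9 of 10 genes were above the reference and none had a measured difference of 2-fold, with *Rbpj* at 10.49 and 10.32, the acetyltransferase gene *Crebbp* at 12.35 and 12.17 and a median difference of −0.02. Among 13 corepressor genes above the reference, *Ctbp2* (11.82 and 10.79) was at least 2-fold lower, and *Hdac1*, a deacetylase gene, was at 14.21 and 14.17. Of the remaining receptors and ligands, 7 of 8 were at background on both arrays, and *Cntn1*, reported elsewhere as a ligand of another class, was at 5.60 and 4.29, at least 1.04-fold lower.

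*Hes6* showed a greater difference than any member of the Hes and Hey family above the reference. Its protein is known to act against Hes1. Its signals were 8.31 and 6.26, a difference of −2.05 or 4.14-fold. *Hes5* (6.88 and 6.61), *Hes7* (5.79 and 6.57) and the more distant relative *Bhlhe40* (13.66 and 13.97) were less than 2-fold apart. *Hes2* was at background in young organoids (5.28) and at 5.997 in aged organoids, at least 1.55-fold higher, and *Hey2* and *Heyl* were at background. The genes of secretory and endocrine fate that Hes factors repress, *Atoh1*, *Neurog3*, *Gfi1*, *Spdef* and *Insm1*, were at background on both arrays, with signals from 3.06 for *Insm1* to 5.19 for *Spdef*. Of the genes on the list of those repressed by Hes factors, 3 of 8 measured were above the reference, namely *Hes6* itself, *Mxd4*, which encodes an antagonist of Myc (9.98 and 8.89, 2.13-fold lower in aged organoids), and *Bcl2l11*, which encodes a protein that promotes cell death (7.99 and 8.27).

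Genes reported as Notch targets in other tissues went both ways, and each answers to other pathways as well. *Id1*, an inhibitor of differentiation that answers to BMP signaling, was at 10.08 and 12.43, a difference of 2.35. The growth factor gene *Nrg1* was at 8.43 and 6.08 (−2.35) and *Efnb2*, which encodes the surface ligand ephrin B2, at 12.49 and 11.15 (−1.34). *Myc* was at 16.15 and 14.31 (−1.83) and *Cdkn1a*, a cell cycle inhibitor and p53 target, at 17.43 and 14.31 (−3.11), while *Sox9*, a transcription factor of gland progenitors, was at 13.96 and 13.23. Of the 9 above the reference, 4 were lower in aged organoids by at least 2-fold and 1 was higher, against 11.8% and 11.3% of all genes above the reference, and their median difference was −0.74.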

How the data were processed

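Total RNA of young and aged gastric organoids was hybridized to Clariom S mouse arrays, 1 for each group. The authors deposited a log2 signal for each probe set, made with RMA in Affymetrix Power Tools per the labels. Versions and the base of the logarithm are not given in the sources used here. Base 2 was taken, on which every fold rests, and this choice was not tested. The highest signal was 19.86 on both arrays. On this base *Cdkn1a* was 8.66-fold lower and *Mki67* 10.7-fold higher in aged organoids. Q-PCR in the paper, on replicate samples, gave smaller differences in the same directions for both genes. The sources do not say whether it used the RNA of these arrays, so method and cultures cannot be told apart. The folds here may be too large. RMA brings arrays to a common distribution, so a shift of all genes would not be seen.

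Of 22206 probe sets, 19572 with exactly 1 symbol were kept, and 2634 had none. RefSeq (GRCm38.p6) gave current symbols through the gene identifiers, and averaging the probe sets of 55 genes left 19505 genes. Chromosomes were read from probe set identifiers. A gene under the reference on 1 array has a bound, computed from the reference. No test was possible without replicates. The steps were tested on simulated data.

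Members, lists and thresholds were chosen with earlier results of these data known. Named were all members, each pathway gene at least 2-fold apart and up to 3 of the brightest of a list. Pathway genes of chromosome 12, the stomach genes at background on at least 1 array, groups of 5 or fewer and undetected family members were named after their values were seen. Alternatives covered scaling, reference, fold limit, low values and probe sets. Python 3.11.15, numpy 2.4.6, pandas 2.3.3, statsmodels 0.14.6 and matplotlib 3.10.9 were used.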

Additional observations from a re-analysis of the deposited data

How the results depend on the processing

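The differences of the 10 Notch genes kept their sign and moved by less than the SD of 0.51 at background under median centring, quantile normalization, a lowess correction and centring on genes outside chromosomes 6 and 12, the alternatives that could move them. For *Notch1*, *Dll1* and *Dll4* these are differences of signals at background. RMA had already brought the arrays to a common distribution, so the scalings could move the values little and say little about how firm the differences are. Over the scalings, *Notch2* ranged from 1.59 to 1.67, *Jag1* from −1.003 to −0.961, *Jag2* from −1.51 to −1.39 and *Hes1* from −1.17 to −1.04. *Jag1* passed the 2-fold limit under the lowess correction.

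Several counts moved by more than 1.5 times. Genes at least 2-fold lower among the members were 2, but 0 at a 3-fold limit and 1 when counted on bounds, an alternative chosen after seeing the data. The median difference of members above the reference was −0.47, −0.997 with the reference at the 99th percentile, where 5 genes were left, and −0.07 at the 90th, where there were 8. Among the other pathway genes, 3 were higher, against 11 at a 1.5-fold limit and 5 with no filter on low values, and 10 were lower, against 19 at a 1.5-fold and 4 at a 3-fold limit. No paired analysis was possible because each group has 1 array, and for the same reason no array could be left out. Signals at or under the reference limit *Notch1*, *Dll1*, *Dll4*, *Nrarp* and the aged value of *Jag2*.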
